A study of Mus musculus with 6 samples.

Results

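Of 10 chosen transcription-factor genes, 7 changed in activated mouse CD8 T cells given supernatant of IL-3-treated rather than PBS-treated basophils. Of all tested genes, 30.9% changed. Tbx21, Runx3, Zeb2 and Zbtb32 rose modestly, whereas Eomes, Tox and Prdm1 fell by more than 2-fold. The genes described here are factors of CD8 effector, residency and exhaustion fates (Tbx21, Eomes, Runx3, Prdm1, Zeb2, Id2, Hopx, Tox, Tox2 and Zbtb32) out of 46517 gene identifiers in the deposited count tables. They were chosen by name, for their known roles in CD8 T cells and with earlier results of these data known, and each symbol matched 1 identifier.

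The 6 poly(A) RNA-seq libraries came from C57BL/6J cells of spleen and lymph nodes. In the IL-3 supernatant group (3 libraries), T cells received medium in which sorted basophils had spent 2 days with IL-3 at 3 ng/mL and IL-2 at 100 units/mL. In the PBS supernatant group (3 libraries), the basophils were given IL-2 and PBS instead. All T cells were naive when plated, were stimulated for 3 days on coated antibody to CD3 (5 µg/mL) with antibody to CD28 (0.5 µg/mL) and IL-2 (100 units/mL), and met the supernatant between days 1 and 2. IL-3 added to the basophils and products that the basophils released in response cannot be told apart, since any IL-3 left over was carried in the same supernatant. Whether replicates were separate mice or cultures is not in the labels. P-values therefore describe the spread among these libraries alone, and that spread may be technical.

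T-bet (Tbx21) and eomesodermin (Eomes) are T-box factors that switch on cytotoxic and interferon-gamma genes in CD8 T cells. T-bet, Blimp-1 (Prdm1), ZEB2 and ID2 are known to favour short-lived effector cells, whereas Eomes is known to favour memory cells and is also high in exhausted cells. RUNX3 holds cells in the CD8 lineage and supports tissue residency, and TOX sustains exhausted cells under chronic antigen.

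Library totals were 17377052 to 22174902 expected counts, so 3 counts, the limit that a count of 0 allows, equal 0.135 to 0.173 CPM (counts relative to library size, here scaled by edgeR's TMM method); this covers counting error only. The second principal component (14.7% of the variance) set PBS replicate 2 apart, and the gene CT010467.1 took 4.51% of the counts of that library and 0.433% to 2.2% of those of the other five. The 6 defining markers of CD8 T cells were detected in every library and summed to 1050 to 1145 CPM with IL-3 supernatant and 1701 to 1858 CPM with PBS supernatant, with 5 lower and 1, Cd247, higher. In bulk RNA, fewer cells of a type and less RNA per cell cannot be told apart. Of 4 CD4 T cell markers, Zbtb7b was higher and Foxp3 lower, and the list summed to 18.1 to 20.0 CPM with IL-3 supernatant and 14.1 to 16.0 CPM with PBS supernatant, with Cd4 itself at 0 to 11 and 8 to 15 counts. Of 6 genes of NK and innate lymphoid cells, Kit and Il1rl1 were lower, and the list summed to 12.3 to 14.0 CPM with IL-3 supernatant and 17.7 to 26.2 CPM with PBS supernatant. The defining NK genes Ncr1 and Klrb1c stood at 0 with IL-3 supernatant and at no more than 1 count per library with PBS supernatant. Of 10 basophil and mast cell markers 4 were at 0 throughout and the list reached at most 2.07 CPM with IL-3 supernatant and 3.73 CPM with PBS supernatant; Kit, a member of this list too, was its only tested gene. Of 7 B cell genes Ebf1 was higher, and the list summed to 7.15 to 8.96 CPM with IL-3 supernatant and 3.06 to 4.16 CPM with PBS supernatant. The 8 macrophage, monocyte and dendritic cell genes stayed at or below 2.65 CPM with IL-3 supernatant and 3.02 CPM with PBS supernatant, and the 5 neutrophil genes were at 0. The part of these marker differences in the results below was not tested.

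Of the 10 factors, 9 had enough counts to be tested. With IL-3 supernatant, 4 passed as higher and 3 as lower, a call being a Benjamini-Hochberg adjusted p under 0.05 over the 12407 genes that entered edgeR's quasi-likelihood test. Over all genes tested, 30.9% were called, 14.8% as higher and 16.1% as lower. The 3 that fell did so by more than 2-fold, and none of the 4 that rose reached 2-fold, while 7.79% of all genes tested were called with a change of 2-fold or more. The values of the IL-3 and PBS libraries did not overlap in 8 of the factors, and the same held in 43.6% of all genes tested. The median log2 fold change was 0.07 over the 9 tested factors and -0.0047 over all genes tested. Each of the 7 calls held when any 1 library was left out.

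**Figure D1:**
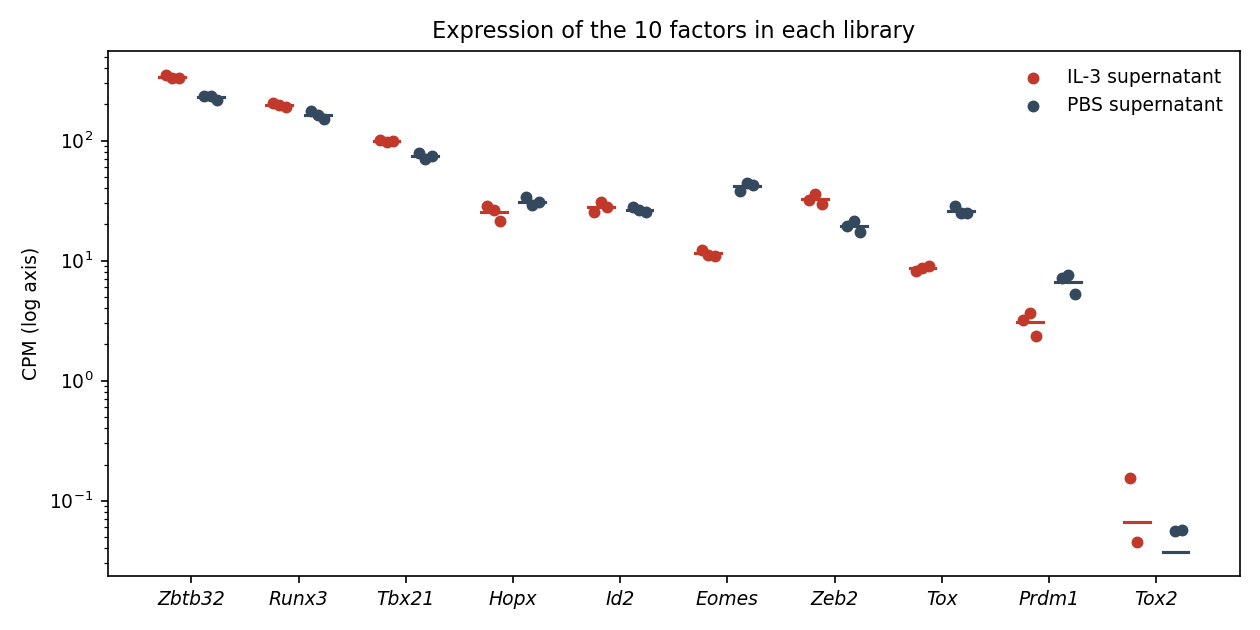
CPM (log axis) of the 10 factors in each library, with IL-3 supernatant left of PBS supernatant and a bar at each group's mean; libraries at 0, which occur for Tox2 alone, are not drawn but count in its mean. The CPM scale compares groups within a gene, and the points of Eomes, Tox and Prdm1 with IL-3 supernatant lie below all of those with PBS supernatant.

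**Figure D2:**
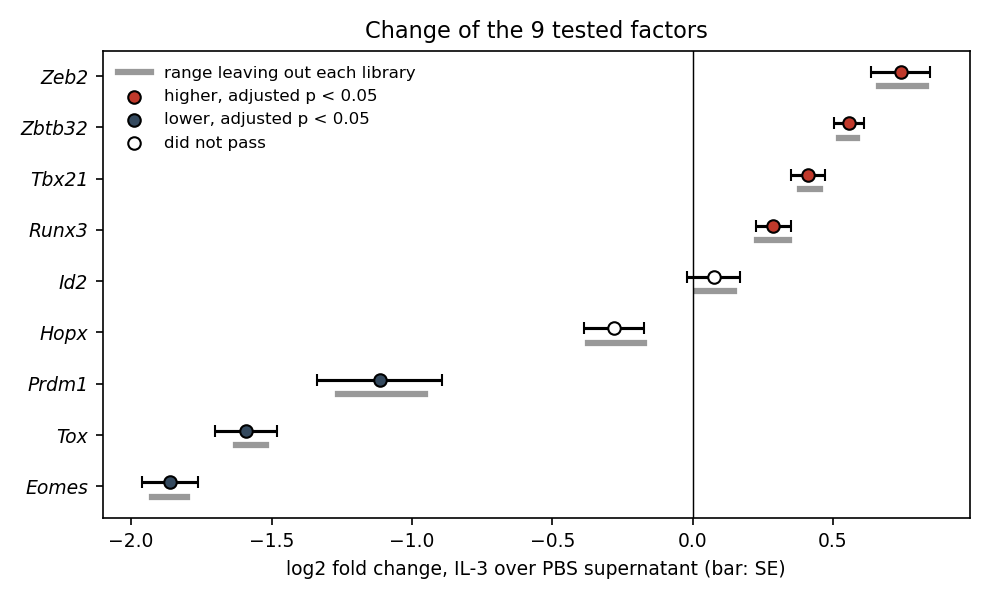
Log2 fold change (IL-3 over PBS supernatant) of the 9 tested factors, with the SE as a black bar and the range over fits that each leave out 1 library as a grey bar. Eomes, at -1.86, and Zeb2, at 0.74, mark the ends of the range, and the fits of Id2 and Hopx are drawn open because they did not pass.

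Eomes showed the deepest fall of the tested factors. The gene lies at chr9:118478212-118486132 (GRCm38, plus strand). It had 12.4, 11.1 and 10.9 CPM in the IL-3 supernatant libraries, against 37.9, 44.4 and 42.6 CPM in the PBS supernatant libraries. All 3 IL-3 values were below every PBS value by a wide margin. The level was 3.63-fold lower with IL-3 supernatant (log2 -1.86, SE 0.10, edgeR adjusted p = 3.1e-10), and leaving out 1 library gave -1.93 to -1.80. Of all genes tested, 3.12% had a larger change in either direction.

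Tbx21, at chr11:97098071-97115331 (minus strand), moved the other way. It stood at 101, 98.1 and 99.0 CPM with IL-3 supernatant, against 79.3, 70.7 and 74.3 CPM with PBS supernatant. The IL-3 values lay close together and above all PBS values. The rise was 1.33-fold (log2 0.41, SE 0.06, edgeR adjusted p = 5.2e-05), a size that 27.6% of all genes tested exceeded in either direction.

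Per length, in TPM (transcript abundance corrected for length, the authors' values), the sum of the T-box pair differed little between groups while its make-up shifted. Tbx21 and Eomes together came to 86.2, 83.3 and 85.0 TPM with IL-3 supernatant, against 84.8, 76.8 and 82.4 TPM with PBS supernatant, and these ranges overlapped. Their means were 84.8 ± 1.43 TPM and 81.3 ± 4.12 TPM (SD, n = 3 each; exact permutation p = 0.2, two-sided). Eomes made up 8.10%, 7.86% and 7.44% of that sum with IL-3 supernatant, against 25.7%, 31.6% and 29.3% with PBS supernatant. The share was 21.1 percentage points lower with IL-3 supernatant (exact permutation p = 0.1, two-sided, the smallest that 3 against 3 libraries can give).

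**Figure D3:**
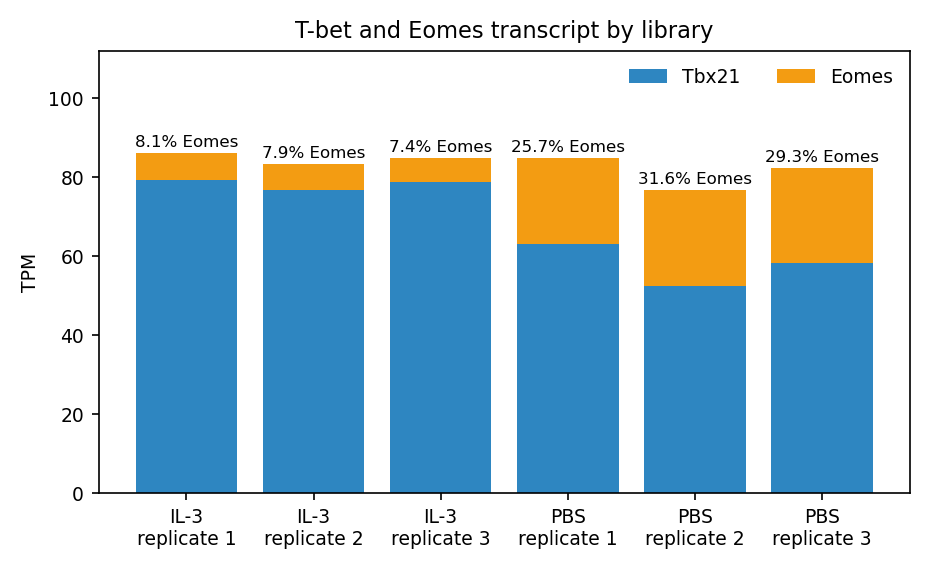
Stacked TPM of Tbx21 (blue) and Eomes (orange) in each library, IL-3 supernatant on the left, with the share of Eomes written above each bar. The bars are of like height, from 76.8 to 86.2 TPM, and the orange part is smaller in each of the 3 IL-3 supernatant libraries.

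The windows of 250 bases before the RefSeq start sites of these 2 genes are shown because the pair moved apart. They lie at chr11:97115332-97115581 (minus strand) and chr9:118477939-118478188 (plus strand) of GRCm38.p6, and capitals mark letters of the motifs searched.
Tbx21: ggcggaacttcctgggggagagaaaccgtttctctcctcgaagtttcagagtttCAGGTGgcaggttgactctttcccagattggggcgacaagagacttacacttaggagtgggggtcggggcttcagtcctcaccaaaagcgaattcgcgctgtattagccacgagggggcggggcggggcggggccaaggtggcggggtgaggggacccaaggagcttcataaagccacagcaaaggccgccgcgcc
Eomes: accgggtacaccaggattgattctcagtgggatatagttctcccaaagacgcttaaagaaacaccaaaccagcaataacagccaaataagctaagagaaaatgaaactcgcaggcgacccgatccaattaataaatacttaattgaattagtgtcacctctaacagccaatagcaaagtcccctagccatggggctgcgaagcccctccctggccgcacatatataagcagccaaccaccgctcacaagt
The motifs searched, on both strands, are named by the factors known to bind them. They were GGTGTGA for T-box factors, TGTGGT for RUNX factors, the E-box CAGGTG of ZEB and E proteins, TTCNNNGAA for STAT factors, AGATAA for GATA factors, TGANTCA for AP-1 and GGAAAA for NFAT. The STAT6 motif has 1 further N in the middle of the STAT letters. The Tbx21 window held 1 E-box, 196 bases before the start, and the Eomes window held no match. Of 32536 distinct RefSeq windows of this length, 17.3% held the E-box, 14.0% the RUNX letters, 7.04% the STAT letters, 5.89% the STAT6 letters, 6.73% the AP-1 letters, 20.4% the NFAT letters, 9.97% the GATA letters and 3.33% the T-box letters. RefSeq windows were found for 9 of the 10 factors; Tox had none in the table used.

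Runx3, at chr4:135120652-135177990 (plus strand), ranked after Zbtb32 in TPM in both groups and rose slightly. It had 206, 197 and 192 CPM with IL-3 supernatant, against 175, 163 and 150 CPM with PBS supernatant. The groups did not overlap, but the lowest IL-3 value was only a little above the highest PBS value. The rise was 1.22-fold (log2 0.29, SE 0.06, edgeR adjusted p = 0.0018). The call was lost on log2(TPM + 1) of 5 libraries with no filter on low values (limma adjusted p = 0.15, log2 0.34). In PBS replicate 2, the library with values per isoform, 95.5% of Runx3 TPM belonged to the transcript that starts at position 135120652, which is the distal promoter, and 2.72% to the one that starts at 135152496, near the proximal promoter. The antisense gene Gm16224, inside Runx3, had 7, 13 and 16 counts with IL-3 supernatant, against 5, 9 and 4 counts with PBS supernatant. The setting for strand is not given in the sources used here, so reads from a gene and its antisense partner may not have been told apart, though these counts are small beside those of Runx3. The window before the distal start, chr4:135120395-135120644 (GRCm38.p6, plus strand), is shown as the promoter of the main transcript.
Runx3: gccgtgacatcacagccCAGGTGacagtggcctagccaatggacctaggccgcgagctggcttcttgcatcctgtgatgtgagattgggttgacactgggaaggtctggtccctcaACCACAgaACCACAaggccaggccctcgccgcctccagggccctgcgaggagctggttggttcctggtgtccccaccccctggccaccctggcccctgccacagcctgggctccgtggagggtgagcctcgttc
It held 2 RUNX matches, 134 and 126 bases before the start and both as the reverse complement of the printed strand, and 1 E-box at 233 bases.

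ThPOK, the product of Zbtb7b and the CD4-lineage factor that opposes RUNX3, rose by more than Runx3 did. Zbtb7b had 19.4, 16.9 and 17.7 CPM with IL-3 supernatant, against 8.24, 5.98 and 4.85 CPM with PBS supernatant (means 18.0 ± 1.29 and 6.36 ± 1.72 CPM, SD, n = 3 each; edgeR adjusted p = 2.7e-06). Within each library, log2 CPM of Runx3 minus that of Zbtb7b was 3.46 ± 0.07 with IL-3 supernatant and 4.69 ± 0.27 with PBS supernatant (SD, n = 3 each). The difference between groups was -1.23 (exact permutation p = 0.1, the smallest possible). CPM is not corrected for length, so of such a difference of log2 CPM only the shift between groups is read, not its size within a group.

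Zeb2, a zinc-finger repressor that acts with T-bet in terminal effector cells, had the largest log2 fold rise of the tested factors. The gene lies at chr2:44983632-45117395 (minus strand). It had 31.8, 36.1 and 29.6 CPM with IL-3 supernatant, against 19.5, 21.6 and 17.3 CPM with PBS supernatant. All IL-3 values were above all PBS values. The rise was 1.67-fold (log2 0.74, SE 0.11, edgeR adjusted p = 3.8e-05), and 0.66 to 0.83 on the log2 scale with 1 library left out. The antisense gene Zeb2os had 1, 12 and 7 counts with IL-3 supernatant, against 2, 0 and 1 counts with PBS supernatant. Its relative Zeb1, known for the opposite role in memory cells, rose as well, to 58.0 ± 2.17 CPM, against 46.7 ± 0.672 CPM with PBS supernatant (SD, n = 3 each; log2 0.31, edgeR adjusted p = 0.0023). Log2 CPM of Zeb2 minus that of Zeb1 was -0.84 ± 0.16 with IL-3 supernatant and -1.27 ± 0.14 with PBS supernatant, a difference of 0.43 (exact permutation p = 0.1, the smallest possible). On log2(TPM + 1) of 6 libraries that difference was 0.29 and the groups' values mixed (exact permutation p = 0.3). In PBS replicate 2, 59.5% of Zeb2 TPM belonged to a transcript that starts at 45110288 and 25.3% to one that starts at 45110515. The window before the nearest RefSeq start, chr2:45110278-45110527 (GRCm38.p6, minus strand), is therefore shown, and both transcript starts lie inside it.
Zeb2: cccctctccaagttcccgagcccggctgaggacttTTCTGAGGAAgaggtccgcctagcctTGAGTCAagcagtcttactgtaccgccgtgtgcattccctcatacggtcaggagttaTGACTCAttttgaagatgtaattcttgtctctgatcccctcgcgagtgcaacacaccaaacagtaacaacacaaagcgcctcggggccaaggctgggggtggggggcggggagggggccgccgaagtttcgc
It held 1 STAT6 match, 215 bases before the RefSeq start, and 2 AP-1 matches, at 189 and 132 bases. These matches lie upstream of the transcript start at 45110288 but downstream of the one at 45110515.

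Zbtb32, a BTB zinc-finger repressor known to bind and restrain GATA3 and to limit T cell responses, had the highest TPM of the factors in both groups. The gene lies at chr7:30589681-30598909 (minus strand). It had 354, 331 and 329 CPM with IL-3 supernatant, against 236, 235 and 219 CPM with PBS supernatant. The IL-3 values were clear of the PBS values, and the rise was 1.47-fold (log2 0.56, SE 0.05, edgeR adjusted p = 4.9e-07). By mean TPM it ranked 372 of 12407 tested genes with IL-3 supernatant and 575 with PBS supernatant. In PBS replicate 2, 89.0% of Zbtb32 TPM belonged to the transcript that starts at 30592942 and 11.0% to the one that starts upstream, at 30598869. The window before the internal start, chr7:30592943-30593192 (GRCm38.p6, minus strand), is shown for that reason.
Zbtb32: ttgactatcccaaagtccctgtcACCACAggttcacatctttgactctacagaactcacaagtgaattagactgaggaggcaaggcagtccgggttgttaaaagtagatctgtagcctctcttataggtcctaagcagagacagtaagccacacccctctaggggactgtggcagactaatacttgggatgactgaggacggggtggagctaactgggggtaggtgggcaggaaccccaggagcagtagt
It held 1 RUNX match, 227 bases before the start and as the reverse complement of the printed strand.

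Tox, an HMG-box factor of exhausted cells, fell the most after Eomes. From chr4:6686353-6991557 (minus strand), it had 8.24, 8.65 and 8.99 CPM with IL-3 supernatant, against 28.5, 24.8 and 24.7 CPM with PBS supernatant. The highest IL-3 value was below the lowest PBS value by a wide margin. The level was 3.01-fold lower (log2 -1.59, SE 0.11, edgeR adjusted p = 7.3e-09). Its relative Tox2, at chr2:163203125-163324170 (plus strand), was close to undetected. Tox2 had 3, 1 and 0 counts with IL-3 supernatant, against 0, 1 and 1 counts with PBS supernatant. The ratio of the summed 4 and 2 counts, scaled by library size, was 1.75 with an exact 95% counting interval of 0.251 to 19.3. A difference in Tox2 was therefore not detectable at this depth, and no Tox to Tox2 ratio was computed.

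Prdm1, which encodes the repressor Blimp-1, was low in all libraries and lower with IL-3 supernatant. Located at chr10:44437177-44528501 (minus strand), it had 3.19, 3.69 and 2.35 CPM (62, 82 and 46 counts) with IL-3 supernatant, against 7.18, 7.65 and 5.25 CPM (129, 138 and 92 counts) with PBS supernatant. The groups did not overlap, and replicate 3 was the lowest library in each. The level was 2.17-fold lower (log2 -1.12, SE 0.22, edgeR adjusted p = 0.00094), with the largest SE of the 9 tested factors. The call was lost on log2(TPM + 0.1) of 5 libraries (limma adjusted p = 0.056, log2 -0.95) and on log2(TPM + 1) of 5 libraries with no filter (limma adjusted p = 0.11, log2 -0.65). Bcl6, whose product and Blimp-1 repress each other's genes, was near 1 CPM in both groups, at 1.10 ± 0.125 CPM with IL-3 supernatant and 1.16 ± 0.664 CPM with PBS supernatant (SD, n = 3 each; edgeR adjusted p = 0.93). Log2 CPM of Prdm1 minus that of Bcl6 was 1.38 ± 0.37 with IL-3 supernatant and 2.57 ± 0.89 with PBS supernatant. The difference of -1.18 (exact permutation p = 0.1, the smallest possible) was -0.67 without PBS replicate 1, in which Bcl6 was at 0.501 CPM.

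Id2, which blocks E proteins and supports effector cells, did not pass. At chr12:25093799-25097140 (minus strand), it had 25.2, 30.7 and 28.1 CPM with IL-3 supernatant, against 27.8, 26.5 and 25.6 CPM with PBS supernatant, and the groups overlapped (log2 0.07, SE 0.09, edgeR adjusted p = 0.61). Id3, the relative that marks memory and naive cells, fell to 14.4, 12.3 and 15.7 CPM with IL-3 supernatant, against 21.1, 22.3 and 25.0 CPM with PBS supernatant (log2 -0.69, SE 0.11, edgeR adjusted p = 0.00017). Log2 CPM of Id2 minus that of Id3 was 0.98 ± 0.28 with IL-3 supernatant and 0.23 ± 0.18 with PBS supernatant. The difference between groups was 0.76 (exact permutation p = 0.1, the smallest possible).

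Hopx encodes a small homeodomain protein that does not bind DNA itself and is expressed in effector and effector-memory T cells. The gene lies at chr5:77086988-77115121 (minus strand). It had 28.7, 26.3 and 21.5 CPM with IL-3 supernatant, against 33.7, 28.9 and 30.5 CPM with PBS supernatant. The groups did not overlap, but the highest IL-3 value and the lowest PBS value were almost equal. The difference did not pass (log2 -0.28, SE 0.11, edgeR adjusted p = 0.057). It did pass without IL-3 replicate 1 (log2 -0.37, edgeR adjusted p = 0.031), with no filter on low counts (edgeR adjusted p = 0.026), by limma-voom (adjusted p = 0.048) and with the replicate number as a block (edgeR adjusted p = 0.046). It did not pass under the other alternatives, which included DESeq2 (adjusted p = 0.12), and without IL-3 replicate 3 it was smaller (log2 -0.17, edgeR adjusted p = 0.26). The antisense gene Hopxos had 5, 18 and 11 counts with IL-3 supernatant, against 10, 11 and 5 counts with PBS supernatant.

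**Figure D4:**
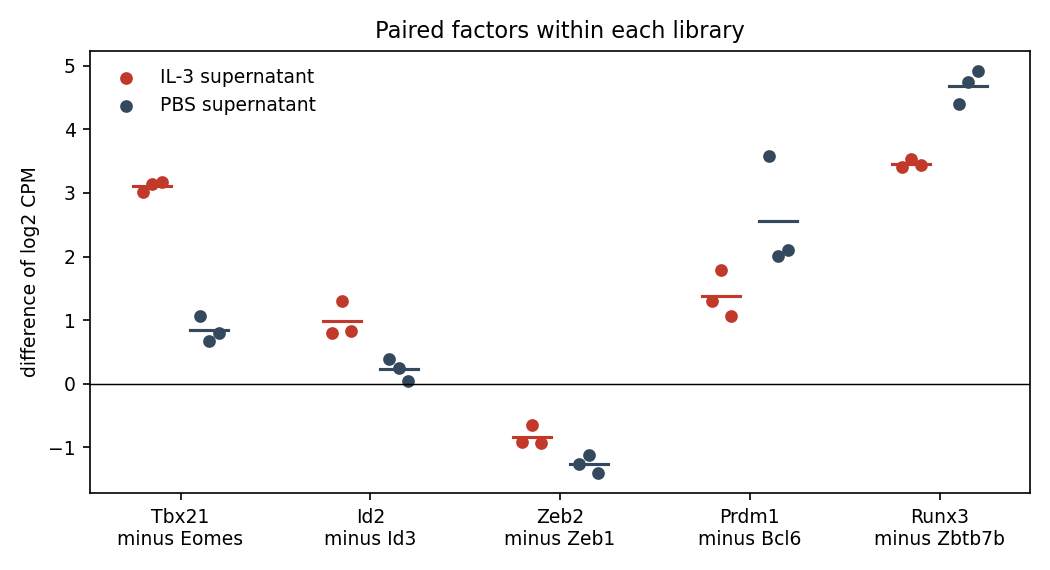
Difference of log2 CPM between paired factors within each library, with IL-3 supernatant left of PBS supernatant and a bar at each mean. Points of the groups do not overlap in any of the 5 pairs; the mean of Tbx21 minus Eomes is 3.11 with IL-3 supernatant and 0.85 with PBS supernatant.

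Across the 5 pairs, the Tbx21 to Eomes ratio moved the most. Log2 CPM of Tbx21 minus that of Eomes was 3.02, 3.13 and 3.17 with IL-3 supernatant, against 1.06, 0.67 and 0.80 with PBS supernatant, which is a ratio 4.80-fold higher with IL-3 supernatant. Each of the 5 pairs gave an exact permutation p = 0.1 (two-sided), and 0.1 after Benjamini-Hochberg adjustment over the pairs, so this design cannot pass 0.05 for any of them. The order of the factors per length changed in its lower part. In mean TPM with IL-3 supernatant the order was Zbtb32 (391 ± 14.9), Runx3 (109 ± 3.33), Tbx21 (78.2 ± 1.27), Hopx (44.3 ± 6.01), Id2 (43.2 ± 4.26), Zeb2 (13.4 ± 1.14), Eomes (6.62 ± 0.334), Tox (4.27 ± 0.198), Prdm1 (1.31 ± 0.262) and Tox2 (0.0515 ± 0.0511; SD, n = 3). With PBS supernatant it was Zbtb32 (263 ± 11.2), Runx3 (84.0 ± 8.60), Tbx21 (57.9 ± 5.24), Hopx (53.3 ± 5.71), Id2 (40.4 ± 2.51), Eomes (23.4 ± 1.37), Tox (12.7 ± 1.46), Zeb2 (8.42 ± 0.481), Prdm1 (2.81 ± 0.481) and Tox2 (0.0740 ± 0.0876; SD, n = 3). Zeb2 thus stood above Eomes and Tox with IL-3 supernatant and below both with PBS supernatant, and in each group the libraries of these 3 genes did not overlap. Neighbours whose libraries overlapped were Hopx and Id2 with IL-3 supernatant, and Tbx21 and Hopx with PBS supernatant. The TPM of PBS replicate 2 are sums over isoforms.

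Genes tied to these factors by family, target or signal were described through 6 lists, some of which share genes. Their counts can be read against the 14.8% of all tested genes called higher and the 16.1% called lower, and their medians against the -0.0047 over all tested genes. Apart from the paired factors, the genes named below come from the 4 of each list with the smallest p, plus others chosen after their values were seen.

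Of 19 tested relatives of the factors, 6 rose and 4 fell, with a median log2 fold change of 0.09. The BTB zinc-finger gene Zbtb38, a reader of methylated DNA, rose to 47.3 ± 2.78 CPM, against 15.6 ± 1.99 CPM with PBS supernatant (SD, n = 3 each; log2 1.60, edgeR adjusted p = 2.4e-09). Those that fell were Id3, Prdm2, at log2 -0.38, Prdm11, at -0.67, and Cbfb, the partner of all RUNX proteins, at -0.45 (edgeR adjusted p = 0.041). Cbfb had 144 ± 13.4 CPM with IL-3 supernatant and 197 ± 32.4 CPM with PBS supernatant, so it fell while Runx3 rose. The relatives Tbx6, Tbx19, Tbx20, Id1, Id4, Tox3 and Zbtb16 had too few counts to be tested.

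Of 15 E proteins and opposing factors of naive, memory and follicular cells, 2 rose and 8 fell, with a median log2 fold change of -0.17. Klf2, which keeps naive cells circulating, fell to 0.750 ± 0.391 CPM, against 11.2 ± 1.77 CPM with PBS supernatant (SD, n = 3 each; log2 -3.91, SE 0.28). Myb, a factor of stem-like CD8 cells, fell by 1.26 on the log2 scale and Tcf7, which encodes TCF-1, by 0.56. Those that rose were the chromatin organizer Satb1, at log2 1.67 (803 ± 12.9 CPM with IL-3 supernatant and 252 ± 13.4 CPM with PBS supernatant), and Lef1, at 0.23 with overlapping groups (edgeR adjusted p = 0.022). The number higher in this list was 1 without any one of IL-3 replicate 1, IL-3 replicate 3, PBS replicate 2 or PBS replicate 3.

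Of 19 tested type 1 effector genes that T-bet or Eomes bind or control, 6 rose and 8 fell, with a median log2 fold change of -0.05. The subunits of the IL-18 receptor fell together: Il18rap had 13.2, 12.7 and 12.9 CPM with IL-3 supernatant, against 64.2, 70.5 and 70.6 CPM with PBS supernatant (log2 -2.41, SE 0.08, edgeR adjusted p = 2.1e-12). Il18r1 had 23.5, 20.5 and 18.7 CPM with IL-3 supernatant, against 108, 107 and 101 CPM with PBS supernatant (log2 -2.33, SE 0.08). Klrk1, which encodes the receptor NKG2D, fell by 1.53 on the log2 scale. Gzmb, which encodes granzyme B, rose by log2 0.94, with 8862, 8433 and 8771 CPM with IL-3 supernatant, against 4593, 4584 and 4397 CPM with PBS supernatant. Ifng, the interferon-gamma gene, rose by log2 0.96, with 1749, 1679 and 1675 CPM with IL-3 supernatant, against 894, 921 and 811 CPM with PBS supernatant. Il12rb2 (log2 1.23), Fasl (0.91) and Tnfsf10 (0.41) rose too. Cxcr3 (-1.90), Klrd1 (-1.17), Klrc1 (-0.77), Ccl3 (-0.49) and Ccl4 (-0.25) were among those that fell. Gzma, which encodes granzyme A, was named after its values were seen, as the largest log2 fold rise of the list. It had 9.11, 7.56 and 4.85 CPM with IL-3 supernatant, against 0.556, 0.443 and 0.171 CPM with PBS supernatant (log2 4.17, SE 0.36, edgeR adjusted p = 2.0e-07). The PBS values rest on few counts, the lowest being close to the level of 3 counts, so the size of this rise is uncertain. Klrg1 and S1pr5, markers of terminal effector cells, had too few counts to be tested.

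Of 17 tested residency genes of Runx3, Blimp-1 and Hobit, 5 rose and 9 fell, with a median log2 fold change of -0.50. The list holds genes that resident cells keep high and egress genes that they keep low, and these went both ways. Those that rose were Rgs2 (log2 1.56), Ahr (1.17), Rgs1 (1.00), Bhlhe40 (0.77) and S1pr1 (0.64), of which S1pr1 encodes the receptor for egress from tissue and the other four are known from resident cells. Rgs1, a regulator of G-protein signalling, had 224, 263 and 271 CPM with IL-3 supernatant, against 131, 123 and 125 CPM with PBS supernatant. Those that fell included the residency markers Cd69 (log2 -0.68), Itgae (-0.96), Cxcr6 (-1.02) and Xcl1 (-0.99), and also Litaf (-0.50). Genes of circulating or naive cells fell too, among them Klf2, the activator of S1pr1, Ccr7 (-0.51) and Tcf7 (-0.56).

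Of 18 tested genes of the Tox programme of exhaustion, 4 rose and 6 fell, with a median log2 fold change of -0.15. Cd101, an inhibitory surface protein of late exhausted cells, fell to 1.24 ± 0.259 CPM, against 8.53 ± 0.394 CPM with PBS supernatant (SD, n = 3 each; log2 -2.77, SE 0.22). Nfatc1, which encodes an NFAT factor, fell by 0.67 on the log2 scale, to 155 ± 5.07 CPM, against 248 ± 7.12 CPM with PBS supernatant. The others that fell were Entpd1 (-1.48), Cd38 (-1.39), Cd160 (-0.74) and Nfatc2 (-0.15). Those that rose were the inhibitory ligand gene Cd200 (log2 0.79), the checkpoint receptor gene Lag3 (0.74), Il10ra (0.34) and Nr4a2 (0.32). Lag3 had 149, 147 and 146 CPM with IL-3 supernatant, against 92.8, 89.8 and 81.8 CPM with PBS supernatant, the opposite direction to Tox. The checkpoint receptor genes Pdcd1 (log2 -0.07), Havcr2 (-0.20), Ctla4 (-0.04) and Tigit (-0.15) did not pass (edgeR adjusted p = 0.45, 0.46, 0.82 and 0.096). Nr4a1, Nr4a3, Cd200r1 and Ikzf2 did not pass either.

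Of 29 tested cytokine and receptor inputs to the factors, 13 rose and 9 fell, with a median log2 fold change of 0.01. Stat5a, which carries signals of IL-2 and related cytokines, had 361, 356 and 376 CPM with IL-3 supernatant, against 154, 155 and 151 CPM with PBS supernatant (log2 1.25, SE 0.05, edgeR adjusted p = 1.1e-11). Batf, an AP-1 factor of activated CD8 cells, rose by log2 1.08. Ifngr1, the ligand-binding chain of the interferon-gamma receptor, had 35.7, 31.5 and 31.8 CPM with IL-3 supernatant, against 101, 91.5 and 97.1 CPM with PBS supernatant (log2 -1.55, SE 0.07). Ifngr2, the other chain, moved the opposite way, with 11.5, 9.86 and 12.5 CPM against 4.95, 3.55 and 3.88 CPM (log2 1.45, edgeR adjusted p = 4.7e-06).

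**Figure D5:**
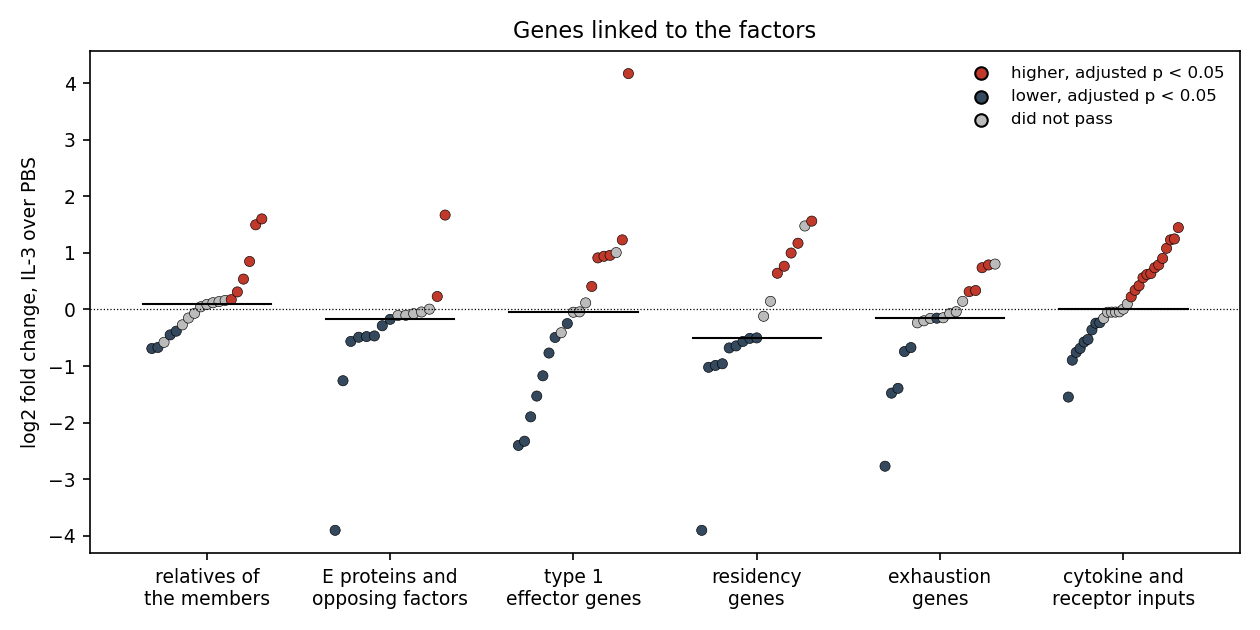
Log2 fold change (IL-3 over PBS supernatant) of every tested gene in the 6 lists, sorted within each list, with a line at the list's median; red and dark blue mark genes that rose and fell at an edgeR adjusted p below 0.05. Each list holds genes on both sides of 0, and the lowest median is that of the residency genes, at -0.50.

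Across the 6 libraries, the genes most like Eomes in log2 CPM were the CD8 T cell marker Cd3e (Pearson's r = 0.9996), Saraf (0.9989) and Vim (0.9987). Those most like Zeb2 were B4galt2 (0.9896), Riok3 (0.9877) and Slc39a7 (0.9876). Over 9722 genes searched, 810 had a correlation above 0.95 with Eomes and 267 with Zeb2. The 6 points fall into the 2 groups, so these values mostly restate the difference between groups and are given as a description.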

How the data were processed

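Poly(A) RNA was sequenced from 6 libraries, grouped by their sample titles. Per the labels' protocols, an Illumina TruSeq kit was used on poly(A) RNA; per the submitters' processing notes, RSEM 1.2.12, Bowtie2 2.2.0, edgeR 3.20.9 and GRCm38 were used, with no role or order stated. Neither annotation nor strand setting is given in the sources used here. The authors deposited expected counts per gene, which divide reads shared between genes and were rounded here, and TPM per gene, or per isoform for PBS replicate 2 (summed per gene here; 99.5% of its TPM matched). Symbols matched 46005 of 46517 identifiers, and coordinates are GENCODE's on GRCm38. Promoter windows are RefSeq's on GRCm38.p6.

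The test was edgeR 4.0.16 (R 4.3.3): filterByExpr, TMM, robust dispersions, a quasi-likelihood fit on group, and Benjamini-Hochberg adjustment over 12407 genes. SE came from the F statistic. Log2 CPM used a prior count of 2. Pairs of factors were compared by exact permutation (SciPy 1.17.1). Alternatives used DESeq2 1.42.0 and limma 3.58.1, including limma on log2(TPM + 1) and log2(TPM + 0.1). The TPM fit of 6 libraries and the fit without CT010467.1 were chosen after seeing the data. No pair of replicates agreed within sampling noise. The factors, lists and pairs were chosen with earlier results of these data known, and named genes follow a rule: all 10 factors, the paired factors, the 4 smallest p of each list, and the 3 genes most correlated with the factors of the deepest fall and the largest rise. Some genes that the rule names are not reported here, and other genes were named after their values were seen: members of small counts, residency and exhaustion genes that fell, and Gzma.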

Additional observations from a re-analysis of the deposited data

How the results depend on the processing

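The direction of each of the 9 tested factors was the same under all 19 alternatives, and no result reversed. The stricter threshold of 0.01, 1 of the 19, reuses the main fit, so directions could not differ there. The calls of Tbx21, Eomes, Zeb2, Tox and Zbtb32 held under all 19 alternatives, with the exceptions for Runx3, Prdm1 and Hopx given beside their values. Genes higher and lower numbered 1834 and 2001, against 669 and 820 by limma on log2(TPM + 1) of 5 libraries with no filter, and 1217 higher at an adjusted p below 0.01, a stricter threshold. That TPM fit has 1 library fewer and tests more genes. With the replicate number as a block, 1634 genes were higher and 1776 lower. Same-numbered libraries had correlations of deviations of -0.15, 0.05 and 0.25, and libraries of unlike number had -0.28 to 0.26. With 3 libraries per group, these values do not settle whether the numbers pair the libraries. Of 228 list counts under alternatives, 17 moved by more than 1.5 times, 9 of them in that unfiltered TPM fit. The 5 pairs kept their sign in all 55 alternative values. Not all of these values could have differed. The replicate block leaves each difference as it was by construction, and other size factors almost cancel within a library. For Tbx21 minus Eomes, the block therefore gave 2.26 again (exact p = 0.25, the smallest that 3 pairs can give). Depth limits Tox2, Bcl6 and Prdm1, which rest on few counts.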
